A study of Mus musculus with 12 samples.

Results

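The 31 genes described here encode the enzymes that make cholesterol and fatty acids, the proteins that switch those enzymes on and off, and a carrier of sterols inside the cell. They were taken as a listed set of symbols, chosen because the transcription factors called SREBPs control such genes. The rule uses no measured value, but the list was chosen with earlier results of these data known. Shares set beside those of all genes are therefore descriptive. All 31 were found among the 24062 gene entries of the table, and all 31 passed the filter of more than 10 normalised counts in at least 3 of 12 libraries. By role, 7 genes act in the mevalonate steps, 10 in the squalene and sterol steps, 6 are regulators or the carrier, and 8 act in the fatty acid steps.

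Messenger RNA came from primary macrophages grown from bone marrow of wild-type C57Bl/6 mice, labelled as passage 1, in 4 groups of 3 libraries. The groups were C-178 plus CMA, CMA, C-178, and no stimulation. C-178 is a covalent inhibitor of STING, the adaptor protein through which DNA in the cytosol triggers interferon genes, and CMA is a small molecule that activates the mouse form of STING. Treatment lasted 2 h, while doses and the order of adding inhibitor and agonist were not stated in the labels read. The labels do not say whether the 3 libraries of a group came from separate mice or cultures, so p-values measure the spread between these libraries, which may be technical. A label on RNA extraction speaks of embryonic fibroblasts, and the macrophage identity was therefore checked on markers.

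Cells sense the sterol content of the endoplasmic reticulum through SCAP, which escorts SREBPs to the Golgi when sterols are scarce. There the SREBPs are cut, and the released part enters the nucleus and switches on the synthesis genes. The INSIG proteins hold SCAP back when sterols are plentiful, and Insig1 is itself an SREBP target. In macrophages, sterol synthesis is known to be linked to the interferon response.

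Promoter sequences are shown for Insig1, Hmgcs1, Cyp51 and Mvd, because these genes carried the largest rise, the differences between CMA with and without C-178, and 1 of the larger falls. The windows come from RefSeq (GRCm38.p6), run from 250 bases before to 50 bases after the annotated start, and read in the direction of the gene. They lie at chr5:28071162-28071461 (plus strand) for Insig1, chr13:119690101-119690400 (plus strand) for Hmgcs1, chr5:4104648-4104947 (minus strand) for Cyp51 and chr8:122443373-122443672 (minus strand) for Mvd. Capitals mark matches to TCACNCCAC, 1 form of the sterol regulatory element, and to the CCAAT box on either strand, where ATTGG is the CCAAT box read on the other strand. Other forms of the element were not searched and are not marked.
Insig1: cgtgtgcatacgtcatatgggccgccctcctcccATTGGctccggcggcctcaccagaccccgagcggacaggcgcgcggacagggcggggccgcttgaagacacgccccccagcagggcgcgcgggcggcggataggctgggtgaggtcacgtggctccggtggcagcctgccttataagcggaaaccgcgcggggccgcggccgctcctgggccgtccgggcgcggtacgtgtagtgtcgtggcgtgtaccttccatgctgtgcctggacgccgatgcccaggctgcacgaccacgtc
Hmgcs1: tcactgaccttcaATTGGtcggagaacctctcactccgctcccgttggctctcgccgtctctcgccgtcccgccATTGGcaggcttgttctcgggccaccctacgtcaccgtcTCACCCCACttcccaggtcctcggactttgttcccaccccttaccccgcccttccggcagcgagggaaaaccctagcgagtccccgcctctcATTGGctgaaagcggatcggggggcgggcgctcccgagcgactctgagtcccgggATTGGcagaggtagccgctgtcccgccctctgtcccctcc
Cyp51: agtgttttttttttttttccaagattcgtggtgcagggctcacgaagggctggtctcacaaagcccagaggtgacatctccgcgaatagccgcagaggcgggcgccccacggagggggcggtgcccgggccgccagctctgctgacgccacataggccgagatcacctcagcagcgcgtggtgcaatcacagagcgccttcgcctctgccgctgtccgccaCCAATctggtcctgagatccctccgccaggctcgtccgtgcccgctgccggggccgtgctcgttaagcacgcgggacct
Mvd: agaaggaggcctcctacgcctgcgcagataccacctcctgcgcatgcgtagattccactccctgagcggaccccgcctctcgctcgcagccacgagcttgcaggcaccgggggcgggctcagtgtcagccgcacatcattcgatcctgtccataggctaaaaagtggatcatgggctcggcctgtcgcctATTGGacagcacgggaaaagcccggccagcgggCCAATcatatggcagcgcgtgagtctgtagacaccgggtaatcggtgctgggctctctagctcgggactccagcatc

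Windows were at hand for 24 of the 31 genes, 32 in all, since 5 genes had 2 or 3 annotated starts. A gene was counted as holding a motif when any of its windows did, on either strand, so that a gene with several windows had more chances, here and among all genes. All genes here means the 27025 with a window, whether or not they passed the filter, while all 31 genes of the set passed it. The motif TCACNCCAC was found in 1 of the 24 genes, Hmgcs1, where it starts 137 bases before the start site, against 1.44% of 27025 genes with a window. The CCAAT box was found in 19 of the 24 genes, 79.2%, against 41.1% of all genes. The GC box GGGCGG was found in 20, 83.3%, against 38.2% of all genes, and the E-box CACGTG in 4 (Hsd17b7, Dhcr7, Insig1 and Scap), 16.7%, against 8.09%. The interferon-stimulated response element was found in Ebp, 4.17% of the 24 against 3.99% of all genes. None of the motifs searched contains another, and a match describes the letters of a window, not a bound site. A window without TCACNCCAC is not shown to lack a sterol regulatory element, since other forms were not searched.

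The libraries differed in depth. Reads recovered from the normalised counts, in M (mega) reads, ran from 7.766 to 36.438 M in the C-178 plus CMA group, from 7.126 to 7.826 M with CMA, from 7.049 to 28.476 M with C-178, and from 13.907 to 17.449 M without stimulation. Macrophage markers were high throughout, with 7 of 8 listed markers in the table and all 7 above 100 normalised counts on average in each group. The median SD of log2 values within a group was 0.34 with C-178 plus CMA, 0.15 with CMA, 0.18 with C-178 and 0.12 without stimulation. Library 3 of the C-178 plus CMA group stood apart. It was the lowest of its group for 22 of the 31 genes, and the median log2 difference of the 31 genes from their unstimulated means was -1.13 there, against -0.47 and -0.51 in libraries 1 and 2. Changes that rest on this group are therefore also given without library 3. The fit shares 1 spread per gene over all 12 libraries, so this library also enters the SE and p-values of comparisons without its group. Levels below are normalised counts, that is reads divided by 1 factor per library. Changes are differences of log2(normalised counts + 1) with their standard error (SE), which understate the change of genes with few reads.

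Most synthesis genes had their highest mean in the unstimulated macrophages, and the Insig1 gene was highest with CMA. With CMA, 14 of the 31 genes fell against no stimulation and 1 rose, Insig1, where 17.9% of all 11440 tested genes fell and 19.4% rose (limma, adjusted p under 0.05). The median log2 change of the 31 genes was -0.48, against -0.01 over all tested genes. In 19 of the 31, all 3 CMA libraries lay below all 3 unstimulated libraries, as did 30.9% of all genes, and in 2 they lay above, as did 31%. In such bulk RNA, fewer cells of a type and less RNA per cell cannot be told apart. Of the 14 calls, 10 (Hmgcs1, Mvd, Fdft1, Sqle, Msmo1, Dhcr7, Stard4, Fasn, Scd2 and Fads1) and the rise of Insig1 held under all 24 alternatives tried, while those of Lss and Elovl6 were lost in 11, that of Srebf1 in 5 and that of Fdps in 3. Library 3 of C-178 plus CMA enters this comparison only through the shared spread. Without it 18 genes fell, these 14 with Mvk, Hsd17b7, Srebf2 and Fads2. With only the groups compared in the fit, 20 fell, and 3075 of all 11440 tested genes fell, where the reported fit had 2047.

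With C-178 plus CMA against no stimulation, 18 of the 31 genes fell and none rose, where 10.5% of all tested genes fell and 11.1% rose (limma). No gene of the 31 was higher at an unadjusted p under 0.05, where 17% of all tested genes were. Nor was any by edgeR or DESeq2 on recovered reads, which called 1506 and 1626 of all 11440 genes higher. This comparison and that of CMA share the unstimulated libraries. The median log2 change was -0.73, against 0.005 over all genes. The groups did not overlap for 20 genes, all lower, where 17.6% of all genes lay below and 16.9% above. Without library 3 of the combination, 18 genes fell and the median was -0.48. Of these, 16 had also been called with it, Nsdhl and Fads1 were gained, and Idi1 and Fdps were lost. Across the 4 groups, the mean was lowest with C-178 plus CMA for 17 genes, with CMA for 8, with C-178 for 4, and without stimulation for 2. It was highest without stimulation for 23 genes. These means include library 3 of the combination, and the counts were not repeated without it or over all genes. In 15 genes all 9 treated libraries lay below all 3 unstimulated ones, as they did for 2.26% of all tested genes.

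**Figure D1:**
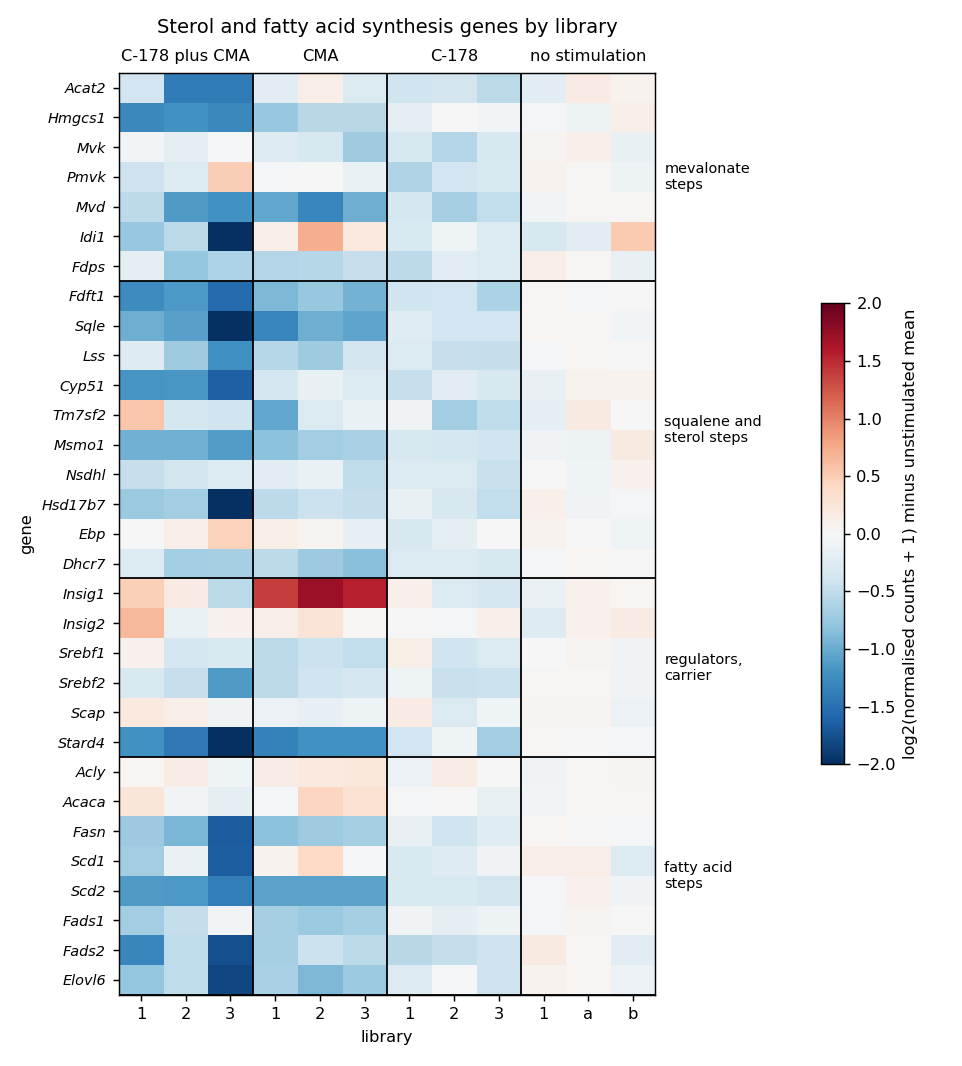
Colours give the log2 difference of each gene (lines) in each of the 12 libraries (columns) from the mean of the unstimulated libraries, with differences beyond 2 in either direction drawn in the end colour. Most lines are blue in all 9 treated columns, Insig1 is red in the 3 CMA columns, and library 3 of C-178 plus CMA is the darkest blue column.

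The mevalonate steps turn acetyl-CoA into the isoprenoid building blocks of sterols. Of these 7 genes, 3 fell with CMA (Hmgcs1, Mvd and Fdps), 5 fell with C-178 plus CMA against no stimulation (Acat2, Hmgcs1, Mvd, Idi1 and Fdps), and 3 were lower with C-178 plus CMA than with CMA (Acat2, Hmgcs1 and Idi1). Hmgcs1 encodes the synthase that makes HMG-CoA. Its levels were 541, 569.7 and 541 normalised counts in the C-178 plus CMA libraries, 781, 900.0 and 894 in the CMA libraries, 1158, 1316 and 1269.9 in the C-178 libraries, and 1292, 1228 and 1442 in the unstimulated libraries. The combination lay below CMA and CMA below the 6 libraries without CMA, while the C-178 and unstimulated libraries overlapped. The log2 change of Hmgcs1 was -0.62 ± 0.11 with CMA (adjusted p = 0.000568) and -1.26 ± 0.11 with C-178 plus CMA (adjusted p = 2.19e-06; -1.245 without library 3), each against no stimulation. Between the combination and CMA alone it was -0.64 ± 0.11 (adjusted p = 0.00193; -0.63 without library 3).

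Mvd encodes the decarboxylase that makes isopentenyl pyrophosphate. It stood at 227, 149.9 and 142 normalised counts with C-178 plus CMA, at 159.9, 132 and 167 with CMA, at 259, 206 and 232 with C-178, and at 317, 334 and 335 without stimulation. All 9 treated libraries were below the unstimulated ones, and the libraries with C-178 plus CMA overlapped those with CMA. The log2 change was -1.105 ± 0.18 with CMA (adjusted p = 0.000229) and -0.95 ± 0.18 with C-178 plus CMA (adjusted p = 0.00155; -0.83 without library 3), both against no stimulation. Mvd overlaps the annotated gene Gm20388 on the opposite strand, and without the strand setting their reads cannot be told apart.

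Idi1 encodes the isomerase of isopentenyl pyrophosphate. It had 31.8, 37.1 and 9.17 normalised counts with C-178 plus CMA, 59.3, 90.8 and 62.4 with CMA, 43.8, 51.2 and 45.0 with C-178, and 43.3, 47.2 and 79.1 without stimulation. The combination was below every other library, the CMA libraries were above the C-178 libraries, and the unstimulated libraries overlapped both. Its change against CMA was -1.60 ± 0.41 (log2, adjusted p = 0.0146), which became -0.996 ± 0.27 without library 3 (adjusted p = 0.0217) and did not pass without CMA library 2.

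Acat2 encodes the enzyme that joins acetyl-CoA units, and it has a close copy, Acat3, in the mouse genome, so its reads are uncertain. Its levels were 87.9, 42.8 and 42.8 normalised counts in the combination, 97.2, 126 and 93.6 with CMA, 86.4, 88.8 and 78.5 with C-178, and 97.3, 128 and 120.2 without stimulation. Library 1 of the combination lay well above libraries 2 and 3, although still below all CMA libraries. The log2 change against CMA was -0.93 ± 0.25 (adjusted p = 0.0187), and without library 3 it was -0.76 ± 0.26, which did not pass (adjusted p = 0.0545). Fdps, which makes farnesyl pyrophosphate, averaged 318 ± 70.7 normalised counts with C-178 plus CMA, 309 ± 15.4 with CMA, 354 ± 38.9 with C-178 and 450.1 ± 42.6 without stimulation (SD, n = 3 each). It fell with CMA (log2 change -0.54, adjusted p = 0.016) and with the combination (-0.52, adjusted p = 0.0314), but without library 3 the call in the combination was lost (-0.47, adjusted p = 0.0568).

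The kinases of the pathway were not called in any comparison by the reported limma fit. Mvk, the mevalonate kinase gene, averaged 127 ± 7.68 normalised counts with C-178 plus CMA, 102 ± 16.7 with CMA, 103 ± 10.6 with C-178 and 136 ± 12.6 without stimulation. For CMA its log2 change against no stimulation was -0.43 (adjusted p = 0.056), and with the combination it was -0.10 (adjusted p = 0.728; -0.13 without library 3). All CMA libraries lay below all unstimulated ones for Mvk. Its fall with CMA was called with only the groups compared and without library 3 of the combination (limma, adjusted p = 0.041), among other alternatives. Pmvk, which encodes the kinase that acts on the product of Mvk, averaged 226 ± 81.3 normalised counts with C-178 plus CMA, 219.6 ± 11.1 with CMA, 169 ± 17.7 with C-178 and 227 ± 14.2 without stimulation.

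**Figure D2:**
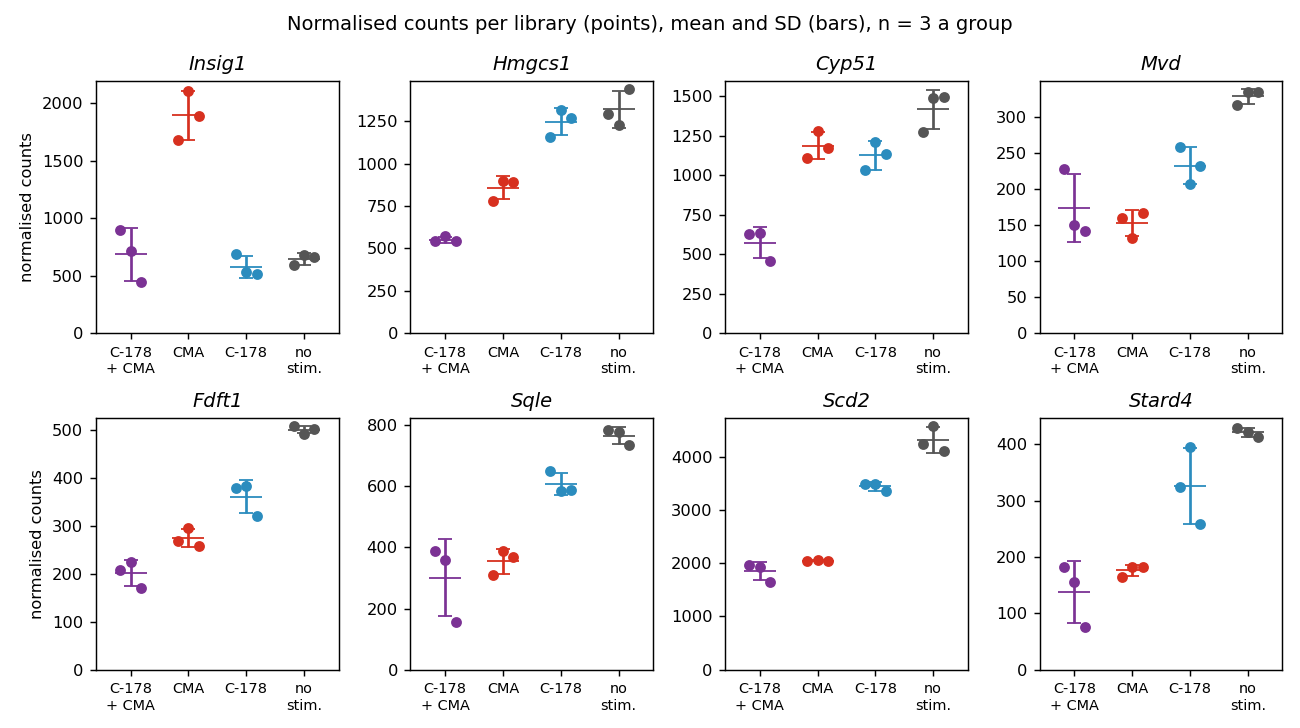
Each panel plots the normalised counts of a gene in the 3 libraries of each group (points) with the mean and SD (lines), on an axis that starts at 0. Hmgcs1, Fdft1, Sqle, Scd2 and Stard4 have their highest points without stimulation, Cyp51 is lowest with C-178 plus CMA, and Insig1 reaches 1683 to 2109.9 with CMA alone.

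The squalene and sterol steps build cholesterol from farnesyl pyrophosphate. Of these 10 genes, 5 fell with CMA (Fdft1, Sqle, Lss, Msmo1 and Dhcr7) and 7 with C-178 plus CMA against no stimulation (these 5, Cyp51 and Hsd17b7). Fdft1 encodes squalene synthase. It had 209, 226 and 171 normalised counts with C-178 plus CMA, 269, 296 and 259 with CMA, 379, 382 and 321 with C-178, and 508, 493 and 502 without stimulation. The 4 groups did not overlap at all. The log2 change was -1.32 ± 0.14 with C-178 plus CMA (adjusted p = 8.52e-06; -1.20 without library 3) and -0.87 ± 0.14 with CMA (adjusted p = 0.000163), each against no stimulation. Fdft1 shares a stretch of chromosome 14 with Ctsb on the opposite strand, which averaged 139240 ± 10936 normalised counts with C-178 plus CMA, 119508 ± 5967 with CMA, 112704 ± 10979 with C-178 and 109663 ± 5832 without stimulation. Reads of that overlap cannot be told apart either.

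Sqle encodes squalene epoxidase, a step that limits sterol synthesis. Its levels were 388, 358 and 157 normalised counts with C-178 plus CMA, 308, 387 and 369 with CMA, 649, 584 and 588 with C-178, and 784, 777 and 735 without stimulation. The libraries with CMA, with or without the inhibitor, overlapped each other and lay below the rest, and library 3 of the combination was lowest. Sqle fell by 1.11 ± 0.26 on the log2 scale with CMA against no stimulation (adjusted p = 0.00329), and by 1.11 ± 0.26 with C-178 plus CMA against C-178 (adjusted p = 0.00581; -0.70 ± 0.12 without library 3).

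Cyp51, the demethylase that acts on lanosterol, stood at 625, 631 and 457 normalised counts in the combination. It stood at 1111, 1281 and 1171 with CMA, at 1031, 1209 and 1133 with C-178, and at 1275, 1486 and 1492 without stimulation. All 3 libraries of the combination were below all others, and CMA, C-178 and unstimulated libraries differed much less. The log2 change against CMA was -1.07 ± 0.14 (adjusted p = 0.00027; -0.92 ± 0.12 without library 3), against C-178 -0.99 ± 0.14 (adjusted p = 0.00015; -0.84 without library 3), and against no stimulation -1.32 ± 0.14 (adjusted p = 1.16e-05; -1.17 without library 3). With CMA alone it was -0.25 ± 0.14 (adjusted p = 0.176). Akap9 overlaps Cyp51 on the opposite strand and averaged 435 ± 203 normalised counts with C-178 plus CMA, 820.4 ± 126 with CMA, 592 ± 217 with C-178 and 479 ± 38.4 without stimulation, and the part of its reads in the Cyp51 result was not tested.

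Msmo1 encodes the oxygenase that removes methyl groups from sterols. It had 848, 849.6 and 764 normalised counts with C-178 plus CMA, 939, 1018 and 1055 with CMA, 1325, 1301 and 1255 with C-178, and 1582, 1536 and 1866 without stimulation. The 4 groups formed 4 steps without overlap. Its log2 change was -0.72 ± 0.11 with CMA (adjusted p = 0.00016) and -1.01 ± 0.11 with C-178 plus CMA (adjusted p = 1.7e-05; -0.96 without library 3), each against no stimulation.

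Dhcr7 encodes the reductase that makes cholesterol from its direct precursor. It had 427, 319.9 and 324 normalised counts with C-178 plus CMA, 356, 312 and 288 with CMA, 419, 428 and 411 with C-178, and 502, 531 and 511 without stimulation. The 2 groups with CMA overlapped, and library 1 of the combination reached the level of the C-178 libraries. Dhcr7 fell with CMA (-0.70 ± 0.14 on the log2 scale, adjusted p = 0.00104) and with the combination (-0.54 ± 0.14, adjusted p = 0.0114; -0.475 without library 3) against no stimulation.

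The remaining sterol genes were Lss, Hsd17b7, Tm7sf2, Ebp and Nsdhl. Lss, the lanosterol synthase gene, averaged 168 ± 54.7 normalised counts with C-178 plus CMA, 184 ± 22.1 with CMA, 202 ± 16.1 with C-178 and 268 ± 6.33 without stimulation. Hsd17b7, a sterol ketoreductase gene, had 137, 141 and 45.8 with C-178 plus CMA against a mean of 230.1 ± 15.0 without stimulation, so that library 3 was far below the other two. Tm7sf2, a sterol reductase gene, and Ebp, a sterol isomerase gene, were called in no comparison by the reported fit. Ebp was the only sterol gene whose mean was highest with the combination, at 578 ± 95.0, against 500.1 ± 49.6 with CMA, 442 ± 47.3 with C-178 and 498 ± 26.0 without stimulation. Nsdhl, which encodes a dehydrogenase of the demethylation steps, averaged 347 ± 23.1 with the combination, 369 ± 49.4 with CMA, 355 ± 22.1 with C-178 and 448 ± 26.2 without stimulation, and its log2 change with the combination was -0.37 (adjusted p = 0.0611), and -0.41 without library 3, which passed (adjusted p = 0.0383).

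Among the regulators, Insig1 was the single gene of the 31 that rose. Its levels were 895, 718 and 442 normalised counts with C-178 plus CMA, 1683, 2109.9 and 1892 with CMA, 689, 527 and 510.0 with C-178, and 589, 681 and 665 without stimulation. All CMA libraries were above all others, and the other 3 groups overlapped. Insig1 was 2.94-fold higher with CMA than without stimulation (log2 change 1.55 ± 0.21, adjusted p = 5.29e-05). With C-178 plus CMA it was lower than with CMA (log2 change -1.52 ± 0.21, adjusted p = 0.000413; -1.23 ± 0.16 without library 3). Between C-178 plus CMA and no stimulation its log2 change was 0.03 ± 0.21 (adjusted p = 0.939; 0.32 without library 3). Against C-178 alone it was 0.20 ± 0.21 with all libraries (adjusted p = 0.502), and 0.49 ± 0.16 without library 3, which passed the test (adjusted p = 0.031). The other retention gene, Insig2, had 350.1, 203 and 235 with C-178 plus CMA, 246, 266 and 228 with CMA, 222, 217 and 239.7 with C-178, and 187, 236 and 249.9 without stimulation. All its groups overlapped, and it was called in no comparison.

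Srebf2 encodes the SREBP that mainly drives sterol genes. It had 1429, 1282 and 811 normalised counts with C-178 plus CMA, 1229.5, 1348 and 1409.7 with CMA, 1672, 1301 and 1315 with C-178, and 1811, 1820.0 and 1691 without stimulation. All treated libraries were below the unstimulated ones. Its log2 change was -0.64 ± 0.18 with C-178 plus CMA (adjusted p = 0.0218), and -0.42 ± 0.18 with CMA (adjusted p = 0.0856), each against no stimulation. For the combination it was -0.39 ± 0.13 without library 3 (adjusted p = 0.0379), and the call was lost on leaving out unstimulated library 1, a or b, and when only the groups compared entered the fit. The fall of Srebf2 with CMA was called in 4 of 24 alternatives. Among them were the fit of only the groups compared and that without library 3 of the combination (limma, adjusted p = 0.00848).

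Srebf1 encodes the SREBPs that act mainly on fatty acid genes. It had 902, 675 and 686 normalised counts with C-178 plus CMA, 592, 632 and 606 with CMA, 925, 647 and 697 with C-178, and 858, 888 and 809 without stimulation. The CMA libraries were below those of the other groups, and the others overlapped. The log2 change with CMA against no stimulation was -0.48 ± 0.15 (adjusted p = 0.0216), and that with C-178 plus CMA was -0.19 ± 0.15 (adjusted p = 0.418; -0.125 without library 3).

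Scap, the escort gene, had 812, 775 and 677 with C-178 plus CMA, 654, 634 and 657 with CMA, 796, 578 and 669.8 with C-178, and 736, 735 and 656 without stimulation, and was called in no comparison. The combination lay above CMA, and the other groups overlapped. Stard4 encodes a carrier that moves sterols between membranes. It had 181, 156 and 76.4 normalised counts with C-178 plus CMA, 165, 182 and 182 with CMA, 324, 394 and 259 with C-178, and 429, 422 and 413 without stimulation. Its levels with CMA, with or without the inhibitor, were below all libraries without CMA. The log2 change was -1.25 ± 0.26 with CMA (adjusted p = 0.00139) and -1.695 ± 0.26 with C-178 plus CMA (adjusted p = 0.000255; -1.32 ± 0.16 without library 3), each against no stimulation.

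In the fatty acid steps, 4 of 8 genes fell with CMA (Fasn, Scd2, Fads1 and Elovl6) and 4 with C-178 plus CMA (Fasn, Scd2, Fads2 and Elovl6), against no stimulation. Scd2 encodes a desaturase that puts a double bond into saturated fatty acids, and per kb of its longest annotated transcript it had the highest mean of the 31 genes without stimulation, 791 normalised counts per kb, where Scd1 had the lowest, 12.4. Scd2 had 1967, 1939 and 1650.2 normalised counts with C-178 plus CMA, 2047, 2053 and 2043 with CMA, 3487, 3493 and 3354 with C-178, and 4242, 4587 and 4115 without stimulation. The 4 groups did not overlap. It fell by 1.07 ± 0.11 on the log2 scale with CMA (adjusted p = 2.33e-06) and by 1.22 ± 0.11 with C-178 plus CMA (adjusted p = 1.64e-06; -1.14 without library 3), each against no stimulation.

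Fasn encodes fatty acid synthase. It had 589, 518 and 307 normalised counts with C-178 plus CMA, 552, 598 and 613 with CMA, 881, 739 and 828 with C-178, and 1005, 972 and 952 without stimulation. Library 3 of the combination was the lowest, and the other libraries with CMA lay together below those without. The log2 change of Fasn was -0.73 ± 0.19 with CMA (adjusted p = 0.00758) and -1.10 ± 0.19 with C-178 plus CMA (adjusted p = 0.000786; -0.82 without library 3), each against no stimulation.

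Scd1, a desaturase gene related to Scd2, was low, with 36.5, 54.3 and 18.3 normalised counts in the combination, 62.6, 79.0 and 58.7 with CMA, 48.0, 49.7 and 56.7 with C-178, and 65.4, 65.7 and 49.4 without stimulation. It was lower with C-178 plus CMA than with CMA (log2 change -0.98 ± 0.31, adjusted p = 0.0366), a call lost in 12 of 25 alternatives, among them the fit without library 3 (-0.56, adjusted p = 0.0985). Fads1 and Fads2 encode the desaturases of long polyunsaturated fatty acids. Fads1 averaged 1629 ± 379 with C-178 plus CMA, 1317 ± 38.1 with CMA, 1943 ± 82.8 with C-178 and 2122 ± 63.7 without stimulation. Fads2 averaged 115 ± 52.2 with C-178 plus CMA, 168 ± 13.3 with CMA, 175 ± 8.77 with C-178 and 247 ± 33.9 without stimulation.

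Elovl6, an elongase gene, averaged 40.2 ± 17.0 normalised counts with C-178 plus CMA, 45.6 ± 4.01 with CMA, 66.1 ± 8.64 with C-178 and 77.9 ± 5.62 without stimulation. Acly and Acaca, which supply and carboxylate acetyl-CoA ahead of Fasn, were called in no comparison by the reported fit. With array weights both were called higher with CMA, as were 3672 of all 11440 tested genes. Acly averaged 2525 ± 207 normalised counts with C-178 plus CMA, 2794 ± 60.2 with CMA, 2477 ± 222 with C-178 and 2462 ± 105 without stimulation. The log2 changes of Acly and Acaca with CMA were 0.18 ± 0.11 (adjusted p = 0.213) and 0.23 ± 0.16 (adjusted p = 0.27), on the side opposite to Fasn.

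**Figure D3:**
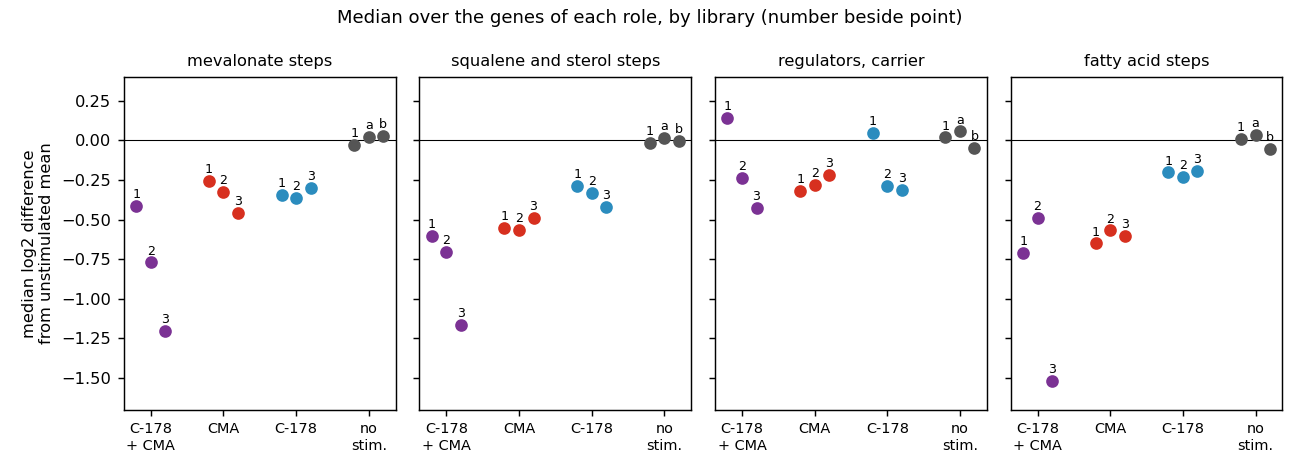
Points give the median log2 difference from the unstimulated mean over the genes of each role, in each library (its name beside the point). With CMA the fatty acid and sterol medians lie between -0.49 and -0.65 in all 3 libraries, and library 3 of C-178 plus CMA reaches -1.17 for sterol and -1.52 for fatty acid genes.

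C-178 alone was compared with no stimulation to ask what the inhibitor does without the agonist. By limma, none of the 31 genes was called, where 0.0962% of all tested genes were called higher and 0% lower, and the smallest adjusted p was 0.706 (Fdft1). edgeR and DESeq2 on recovered reads also called none of the 31, and called 12 and 34 of all genes higher and 1 and 4 lower. The values were nevertheless nearly all on the low side. The log2 change was negative for 29 of the 31 genes, where it was for 52.4% of all tested genes. Its median was -0.32, against -0.01 over all tested genes. All 3 C-178 libraries lay below all 3 unstimulated libraries in 19 genes, as in 7.68% of all genes, and above them in none, as in 7.87%. At an unadjusted p under 0.05 there were 9 genes, all lower (Cyp51, Fdft1, Msmo1, Scd2, Nsdhl, Fdps, Dhcr7, Mvd and Mvk), where 1.59% of all genes were lower and 2.08% higher. Fdft1 had the smallest p, with a mean of 361 ± 34.5 with C-178 against 501 ± 7.70 without stimulation (log2 change -0.48 ± 0.14). With array weights, estimated from the spread of each library in these data, 22 of the 31 were called lower, where 8.97% of all genes were (7.19% higher). This count therefore depends on the model. The weights were 8.37 for unstimulated library a, against 1.26 and 1.48 for 1 and b. They were 4.57 for C-178 library 3, against 0.68 and 0.56 for 1 and 2, so the count leans on libraries a and 3. Over 10917 genes, the log2 change with C-178 went with transcript length (Spearman rho 0.36) and GC content (rho -0.34), given as a description, and with that trend removed the median of the 31 genes was -0.305.

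Against CMA alone, C-178 plus CMA asks which of the CMA effects the inhibitor altered. With 7 genes lower (Cyp51, Insig1, Hmgcs1, Idi1, Acat2, Fdft1 and Scd1) and none higher, where 13.5% of all tested genes were lower and 10.6% higher, the median log2 change of the 31 genes was -0.22, against 0.004 over all genes. The groups lay apart for 10 genes below and 3 above, where 18.5% and 17% of all genes did. Without library 3 of the combination, 4 of the 7 were called (Cyp51, Insig1, Hmgcs1 and Idi1) and the median was -0.07, and without CMA library 2, 3 were called (Cyp51, Insig1 and Hmgcs1). Of the genes that had fallen with CMA, none was called higher with the inhibitor added, the nearest being Fads1 (log2 change 0.28 ± 0.14, adjusted p = 0.152; 0.10 without library 3) and Srebf1 (0.29 ± 0.15, adjusted p = 0.161; 0.36 without library 3). Fads1 was called higher without library 1 of the combination, and 10 genes were called lower without its library 2. At an unadjusted p under 0.05 no gene was higher and 10 were lower, where 18.7% of all genes were higher and 20.8% lower. On recovered reads, edgeR and DESeq2 called none of the 31 higher, and 1350 and 1422 of all 11440 genes. This comparison and that of CMA against no stimulation share the CMA libraries.

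Against C-178 alone, C-178 plus CMA asks what CMA did in the presence of the inhibitor. Here 10 of the 31 genes fell (Hmgcs1, Scd2, Cyp51, Fdft1, Msmo1, Stard4, Fasn, Sqle, Hsd17b7 and Fads2) and none rose, where 12.6% of all tested genes fell and 13.5% rose (limma). At an unadjusted p under 0.05, 1 gene was higher, as were 19.7% of all genes. It was Ebp, which DESeq2 and the fit without library 1 of the combination also called higher, while edgeR called none. Of all 11440 tested genes, DESeq2 called 1836 and edgeR 1737 higher. The median log2 change was -0.32, against 0.007 over all genes. For 11 genes the combination lay wholly below C-178 and for 2 above, where 17.2% and 16.8% of all genes did. Without library 3, 9 fell (8 of these 10 and Fads1) and Insig1 rose, with a median of -0.20. The calls of Hsd17b7 (adjusted p = 0.0466) and Fads2 (adjusted p = 0.0493) lay just past the threshold, and each was lost in 15 of 25 alternatives, among them the fits without library 3 and without any of the 9 libraries outside the combination. Same-numbered libraries of these groups deviated together. Library 1 was also the deepest of both groups, with 28.476 M reads with C-178 and 36.438 M with C-178 plus CMA. The part of depth in this was not tested. In a fit of these 2 groups only, 6 fell without a block, and 9 fell with the library number as a block. Of all 11440 tested genes, 600 and 1460 fell in these fits. The log2 change was -1.30 ± 0.26 for Stard4 (adjusted p = 0.002; -0.93 without library 3) and -1.18 ± 0.11 for Hmgcs1 (adjusted p = 4.03e-06; -1.165 without library 3).

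**Figure D4:**
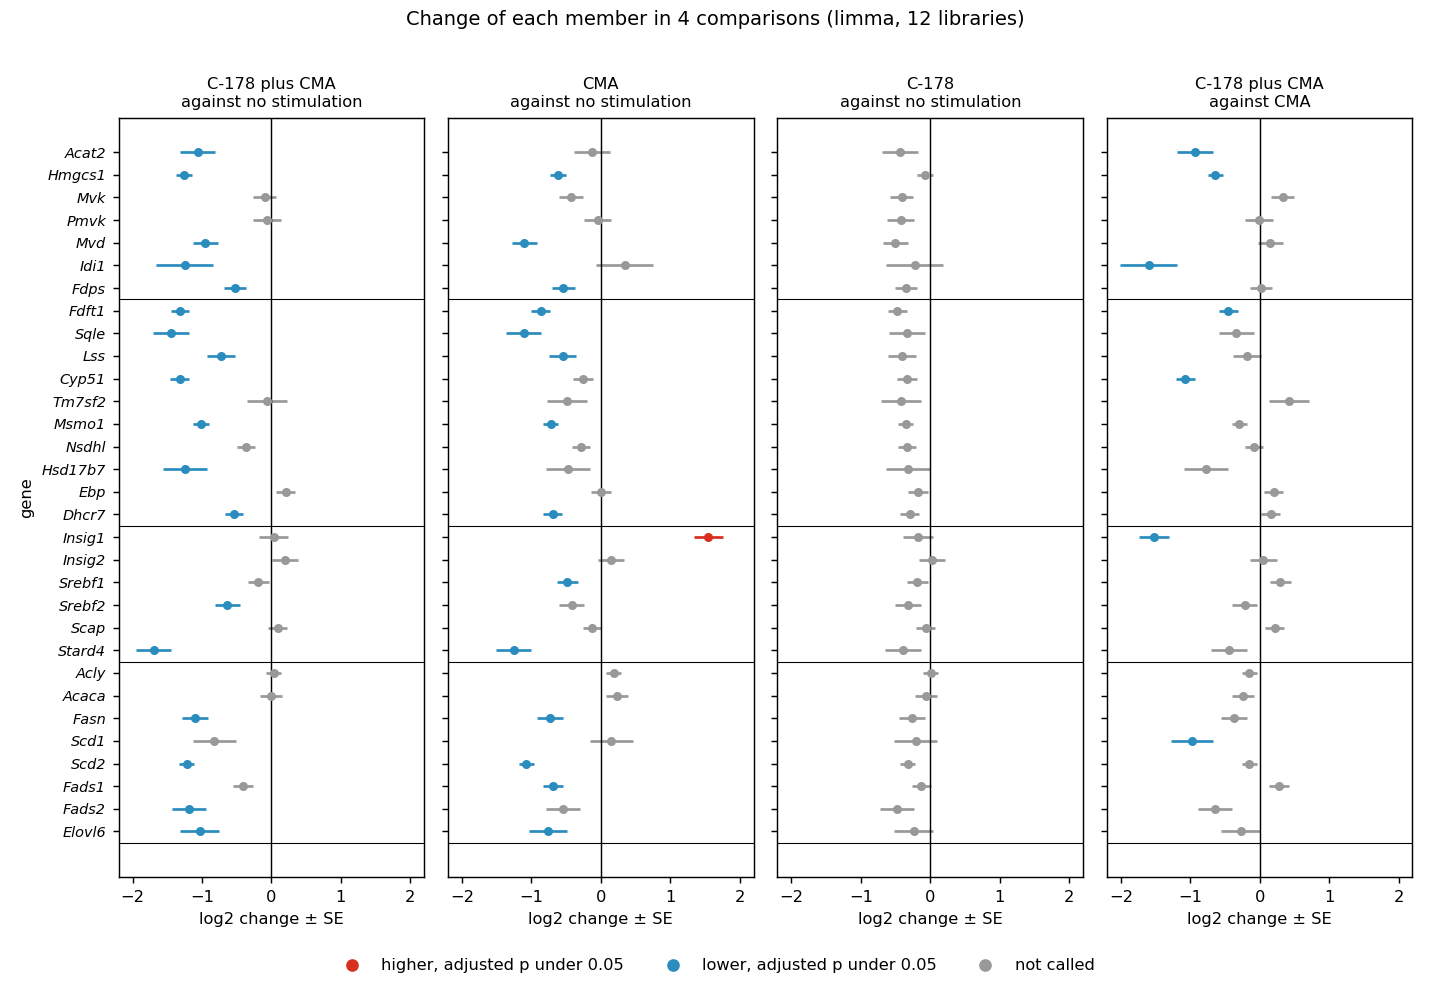
Points give the log2 change of each of the 31 genes with its SE in 4 comparisons, coloured by whether it passed the test (limma, 12 libraries). Blue points are frequent in the first 2 panels, the C-178 panel has no coloured point although nearly all points lie left of 0, and in the panel of C-178 plus CMA against CMA Cyp51, Insig1, Hmgcs1 and Idi1 lie left of 0 among 7 called genes.

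The difference itself was tested as an interaction, that is the CMA effect with C-178 minus the CMA effect without it. Of the 31 genes, 3 had a more negative CMA effect with the inhibitor, where 5.99% of all tested genes did, and none a more positive one, where 3.95% did. For Insig1 the interaction was -1.345 ± 0.30 (log2, adjusted p = 0.017), with CMA effects of 0.20 with C-178 and 1.55 alone. For Cyp51 it was -0.735 ± 0.20 (adjusted p = 0.0351), with CMA effects of -0.99 with C-178 and -0.25 alone. For Hmgcs1 it was -0.56 ± 0.16 (adjusted p = 0.0432), with CMA effects of -1.18 with C-178 and -0.62 alone. At an unadjusted p under 0.05, 4 genes had a more positive and 4 a more negative effect, as had 14.7% and 16.7% of all genes. Of more positive effects edgeR called none and DESeq2 1, Mvk, where they called 541 and 778 over all 11440 tested genes. The interaction of Mvk was 0.74 ± 0.23 (adjusted p = 0.0589), and the median over the 31 genes was 0.04, against 0.007 over all genes. The Insig1 call was lost in 1 of 23 alternatives, without CMA library 2 (adjusted p = 0.0578), those of Cyp51 and Hmgcs1 in 9 and 10. Without library 3 of the combination all 3 were called, without its library 2 Idi1 and Scd1 were called as well, and Mvk and Mvd had more positive effects. Leaving out unstimulated library 1, a or b, C-178 library 2 or 3, or CMA library 3 kept 1 call, Insig1, and leaving out CMA library 2 kept 0.

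Neighbouring genes of the pathway moved in both directions, and their counts with CMA stand beside the 19.4% of all tested genes that rose and the 17.9% that fell. Among 11 genes for SREBP processing and sterol-regulated breakdown of enzymes, 2 rose with CMA and 1 fell, no more than those shares. Rnf139, a ubiquitin ligase gene of that machinery, averaged 1137 ± 112 normalised counts with C-178 plus CMA, 1119.6 ± 154 with CMA, 621 ± 33.5 with C-178 and 598 ± 17.9 without stimulation. Its log2 change was 0.89 ± 0.13 with CMA against no stimulation (adjusted p = 6.78e-05) and 0.87 ± 0.13 with C-178 plus CMA against C-178 (adjusted p = 0.000185; 0.95 without library 3). Syvn1, another ligase gene, rose by 0.65 ± 0.13 and Erlin1, a gene of the endoplasmic reticulum membrane, fell by 0.48 ± 0.11 on the log2 scale with CMA.

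Among 10 genes of isoprenoid branches, 2 rose with CMA, near the 19.4% of all genes, and the others were not called. Coq2, which attaches an isoprenoid tail in ubiquinone synthesis, averaged 275 ± 93.4 normalised counts with C-178 plus CMA, 306 ± 29.5 with CMA, 112 ± 15.0 with C-178 and 148 ± 5.32 without stimulation (log2 change with CMA 1.035 ± 0.20, adjusted p = 0.000876). Pdss1, which makes that tail, rose by 1.095 ± 0.31 on the log2 scale with CMA (adjusted p = 0.0123).

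Of 16 listed further fatty acid genes, 14 were in the table and 12 passed the filter, and with CMA 5 rose and 2 fell, where 19.4% and 17.9% of all genes did. Acsl3, which activates fatty acids with coenzyme A, had 212, 298 and 307 normalised counts with C-178 plus CMA, 391, 389 and 376 with CMA, 645, 917 and 777 with C-178, and 733, 804 and 733 without stimulation. It thus lay below all libraries without CMA in both groups with CMA (log2 change -0.97 ± 0.16 with CMA, adjusted p = 0.000265, and -1.49 ± 0.16 with C-178 plus CMA, adjusted p = 1.31e-05, or -1.585 without library 3). Its relative Acsl1 rose with CMA (0.69 ± 0.14, adjusted p = 0.00172) and was lower with C-178 plus CMA than with CMA (-0.63 ± 0.14, adjusted p = 0.00831; -0.73 without library 3). Acss2, which makes acetyl-CoA from acetate, averaged 227 ± 50.5 normalised counts with C-178 plus CMA, 150.0 ± 22.6 with CMA, 112 ± 30.6 with C-178 and 94.2 ± 1.44 without stimulation.

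Of 13 genes for sterol efflux, storage and oxysterols, 4 rose and 2 fell with CMA, where 19.4% and 17.9% of all genes did. Ch25h, which encodes the enzyme that makes the oxysterol 25-hydroxycholesterol, had 236, 183 and 42.8 normalised counts with C-178 plus CMA, 234, 432 and 448 with CMA, 6.10, 4.52 and 11.6 with C-178, and 6.84, 15.5 and 6.96 without stimulation. It was far above both groups without CMA in all libraries with CMA, and again lowest in library 3 among the combination. Its log2 change was 5.14 ± 0.55 with CMA (adjusted p = 4.81e-06) and 3.62 ± 0.55 with C-178 plus CMA (adjusted p = 0.000273; 4.37 without library 3), each against no stimulation. Oxysterols are known to bind the INSIG proteins and to lower SREBP processing. Abcg1, a sterol exporter gene, averaged 5888 ± 671 normalised counts with C-178 plus CMA, 4750.2 ± 115 with CMA, 3280.2 ± 154 with C-178 and 2639.5 ± 107 without stimulation. Abca1, another exporter gene, averaged 4425 ± 1594 with C-178 plus CMA, 3359 ± 286 with CMA, 6601 ± 664 with C-178 and 5497 ± 239 without stimulation, and fell with CMA (log2 change -0.71 ± 0.21, adjusted p = 0.0168). Mylip, a ligase gene that liver X receptors switch on, averaged 707 ± 78.8 with C-178 plus CMA, 559.8 ± 66.6 with CMA, 1629 ± 87.4 with C-178 and 1113 ± 119 without stimulation. With C-178 alone, the smallest adjusted p over these 4 lists was 0.309 (limma).

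Markers of other cells moved with some groups. Of 8 fibroblast markers, 3 averaged above 100 normalised counts with C-178 plus CMA, 4 with CMA, 4 with C-178 and 3 without stimulation. Their summed level was 464.5 to 983.8 normalised counts with C-178 plus CMA, lowest in library 3, 860.3 to 1525.7 with CMA, 876.3 to 990.0 with C-178, and 674.4 to 712.3 without stimulation, and among them Lum was at 0 in each group except C-178. The 5 adipocyte markers summed to 29.0 to 59.0 with C-178 plus CMA, 31.3 to 33.0 with CMA, 73.8 to 90.1 with C-178 and 57.3 to 77.5 without stimulation, nearly all of it Fabp4, with Plin1 and Lep at 0 throughout. The 6 neutrophil markers summed to 518.0 to 843.9 with C-178 plus CMA, 725.0 to 891.7 with CMA, 692.6 to 768.6 with C-178 and 745.8 to 1049.9 without stimulation. The 4 dendritic cell markers summed to 34.3 to 70.6 with C-178 plus CMA, 29.4 to 47.8 with CMA, 54.2 to 74.2 with C-178 and 76.6 to 92.0 without stimulation. The 5 lymphoid markers summed to 4.3 to 9.2 with C-178 plus CMA, 1.6 to 5.9 with CMA, 17.4 to 24.1 with C-178 and 17.3 to 22.8 without stimulation. The part of these markers in the results was not tested.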

How the data were processed

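RNA-seq of 12 mouse libraries in 4 groups of 3 was used. The deposited values are a signal, gene counts that the authors divided by a factor per library, as the header, which pairs a mean with Cook's distances, lets infer. The 12 Cook's distance columns were not used. The submitters' processing notes name Bowtie2 2.2.1, limma 3.18.13 and mm10 without their roles. For counting tool, annotation and strand: not given in the sources used here. Because the same heading stands on 2 columns of the unstimulated group, its libraries carry the names 1, a and b.

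All values (100%) came out as whole reads within a tolerance of 0.01. Genes above 10 normalised counts in at least 3 libraries (11440) were fitted on log2(value + 1) by limma 3.58.1 in R 4.3.3, with the trend option, all 12 libraries and Benjamini-Hochberg adjustment per comparison. Fits on recovered reads used edgeR 4.0.16 (quasi-likelihood) and DESeq2 1.42.0. Summaries and figures used matplotlib 3.10.9, numpy 2.4.6 and pandas 2.3.3 in Python 3.11.15. An exact permutation test of 3 against 3 libraries cannot go below 0.1, so none is given.

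The members, gene lists and tests were chosen with earlier results of these data known, and all members are named. Library values are given for called members, at most the 8 of smallest adjusted p per comparison, and for the regulators, and at most 4 genes of each further list are named per comparison. Lengths and overlaps come from GENCODE M21 (22724 entries matched, all 31 members among them), and promoters from RefSeq. Same-numbered C-178 plus CMA and C-178 libraries deviated together (correlations 0.45, 0.43 and 0.26), so their comparison was also fitted on these 2 groups with the number as a block. The fit was tested on data simulated for CMA against no stimulation only, with the same spread set for every group. That test therefore does not cover the wider spread of the C-178 plus CMA group. In all, 25 alternatives were tried, 12 of them leaving out a library.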

Additional observations from a re-analysis of the deposited data

Results flagged for a closer look

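For 3 genes the CMA effect differed between macrophages with and without C-178 by the test of the difference itself (limma interaction). The difference, the CMA effect with C-178 minus that without it, was -1.345 for Insig1, -0.735 for Cyp51 and -0.557 for Hmgcs1 on the log2 scale. Such more negative effects were called in 5.99% of all tested genes. All 3 libraries of the combination lay below all 3 CMA libraries for each of them, as in 18.5% of all tested genes. That order does not measure the difference between the CMA effects. The calls of Cyp51 and Hmgcs1 were lost in 9 and 10 of 23 alternatives, and that of Insig1 in 1.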

How the results depend on the processing

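With CMA against no stimulation, the median log2 change of the 31 genes was -0.554 after quantile normalisation, -0.520 with reads thinned to the shallowest library and -0.520 with the length and GC trend removed. Of the 31, 2 genes rose when only the groups compared entered the fit and 3 with array weights, where 3194 and 3672 of all 11440 tested genes rose. Quantile normalisation moved the median of all genes to -0.115 and the length and GC correction to -0.104. For C-178, array weights gave 22 falls, where 8.97% of all tested genes fell, and a median of -0.353. For C-178 plus CMA against CMA, 3 genes fell with only the groups compared and 4 with array weights, where 593 and 1385 of all 11440 tested genes fell. Against C-178, the combination gave 6 falls with only the groups compared and 1 rise by DESeq2, and against no stimulation 10 fell with only the groups compared. Over all 11440 tested genes these counts were 600, 1836 and 722. For the interaction, 1 gene was lower after quantile normalisation and 1 with the length and GC trend removed, while 5 were higher with array weights and 1 by DESeq2. Over all genes these counts were 631, 422, 1438 and 778, of 11440 tested or, with the trend removed, of 10917.

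The replicate number was entered as a block in fits of the 2 groups compared, so both the libraries and the block differ from the reported fit. Set against C-178, the combination had 9 falls, 0 rises and a median of -0.32 with the block, and 6 falls without it. Of all 11440 tested genes, 1460 fell and 1563 rose with the block, and 600 fell without it. Set against CMA, where the numbers did not pair the libraries (correlations -0.14, 0.18 and -0.16), the combination had 3 falls and a median of -0.217 with the block, and also 3 falls without it. Of all tested genes, 747 fell with the block and 593 without it.

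Leaving out a library gave 1 rise, 10 to 18 falls and medians of -0.508 to -0.448 for CMA against no stimulation, and 0 calls and medians of -0.333 to -0.281 for C-178. It gave 0 to 1 rises, 3 to 10 falls and medians of -0.359 to -0.068 for C-178 plus CMA against CMA. It gave 0 to 1 rises, 8 to 14 falls and medians of -0.554 to -0.202 against C-178, and 0 rises, 12 to 18 falls and medians of -0.891 to -0.482 against no stimulation. For the interaction it gave 0 to 2 higher, 0 to 5 lower and medians of -0.058 to 0.206. No gene changed direction while called. The share of all calls that were higher moved for CMA to 42.3% after quantile normalisation, against 52.1% as reported, so counts of direction over all genes depend on the scaling. Idi1, Scd1 and Elovl6 averaged under 100 normalised counts in every group, so their values rest on few reads.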
